A study of Mus musculus with 4 samples.

Results

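Lysosomes break down sugars, lipids and proteins with acid hydrolases, each of which removes a particular bond and some of which need a helper protein. Transcription factors of the MiT family (Tfeb, Tfe3, Mitf and Tfec) bind E-box sequences near many lysosomal genes, a network defined in human cells, and are held in the cytoplasm when the kinase complex mTORC1 is active. Macrophages carry a large lysosomal compartment, and osteoclasts turn theirs toward secretion of acid and enzymes onto bone. The genes described here are 38 lysosomal genes other than cathepsins, chosen by name: 28 hydrolases, activators and luminal proteins with the sterol exporter Npc1, 7 further membrane proteins, and the factors Tfeb, Tfe3 and Mitf. All 38 were found among the 17194 symbols of the count table, and all 38 were kept for testing among 15651 genes.

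The libraries were made from polyadenylated RNA of primary mouse macrophages grown from bone marrow and given RANKL, the cytokine that starts osteoclast formation, for 2 days. The comparison was of 2 libraries labelled siHells, an siRNA against the chromatin remodeller Hells, with 2 labelled siControl, and RANKL was common to all 4. How many animals or cultures lie behind the libraries, and their strain and age, are not stated here, so p-values measure the spread between these libraries, which may be technical. Total counts were 55642819 and 55012697 in siHells and 53502523 and 48873635 in siControl. The targeted gene Hells was at 15.2 and 14.6 CPM (counts scaled to library size, TMM-normalised) in siHells, against 29.3 and 30.0 CPM in siControl.

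Cell type markers moved with the groups. The 12 macrophage markers, such as Lyz2 and Csf1r, were all higher in siHells, with a summed level of 32616 and 31627 CPM in siHells and 17659 and 17791 CPM in siControl. The 12 osteoclast markers, such as Ctsk and Mmp9, were all lower, summing to 1447 and 1408 CPM in siHells and 8785 and 8846 CPM in siControl. Of 9 stromal markers measured, 8 were higher and 1 lower, with sums of 2141 and 2092 CPM in siHells and 1179 and 1200 CPM in siControl. Dendritic markers (7 measured) summed to 13.9 and 13.6 CPM in siHells, against 114.7 and 119.3 CPM in siControl. The 3 lower, with mean CPM in siHells and siControl, were H2-Aa (2.98 and 58.0), H2-Eb1 (1.47 and 40.0) and Itgax (0.870 and 13.9). The 2 higher were Flt3 (2.38 and 0.420) and Zbtb46 (5.42 and 3.84). Neutrophil markers (9 measured, 1 higher and 5 lower) summed to 515 and 492 CPM in siHells, against 511 and 516 CPM in siControl. B cell (3 measured), T and NK cell (2) and erythroid (1) markers reached sums of at most 29.9, 74.1 and 1.42 CPM in any library. The part of these shifts in the lysosomal results was not tested, and in such bulk RNA fewer cells of a type and less RNA per cell cannot be told apart.

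Lysosomal genes were more often higher than lower in siHells, and the abundant ones accounted for most of the gain. With the edgeR quasi-likelihood test and Benjamini-Hochberg adjustment over 15651 genes at 0.05, 20 of the 38 were higher and 11 lower, and 7 did not pass. Over all genes tested, 58.5% passed (29.0% higher, 29.5% lower), so passing alone says little about a gene. A change shown to exceed 1.5-fold was found for 9 higher genes, namely Lgmn, Man2b1, Ppt1, Scarb2, Psap, Lamp1, Grn, Glb1 and Fuca1, and for 1 lower gene, Arsb. Over all genes this stricter test called 8.06% higher and 7.00% lower. The groups did not overlap in 34 of the 38 genes, beside 78.5% of all genes. The median log2 fold change (siHells over siControl) of the 38 was 0.13, beside -0.0043 over all genes, and the range ran from -2.48 (Arsb) to 1.42 (Lgmn). Scaled to library totals instead of TMM, 18 were higher and 15 lower. That scaling moved all genes too, to 3773 higher and 5508 lower, from 4541 and 4612 with TMM.

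**Figure D1:**
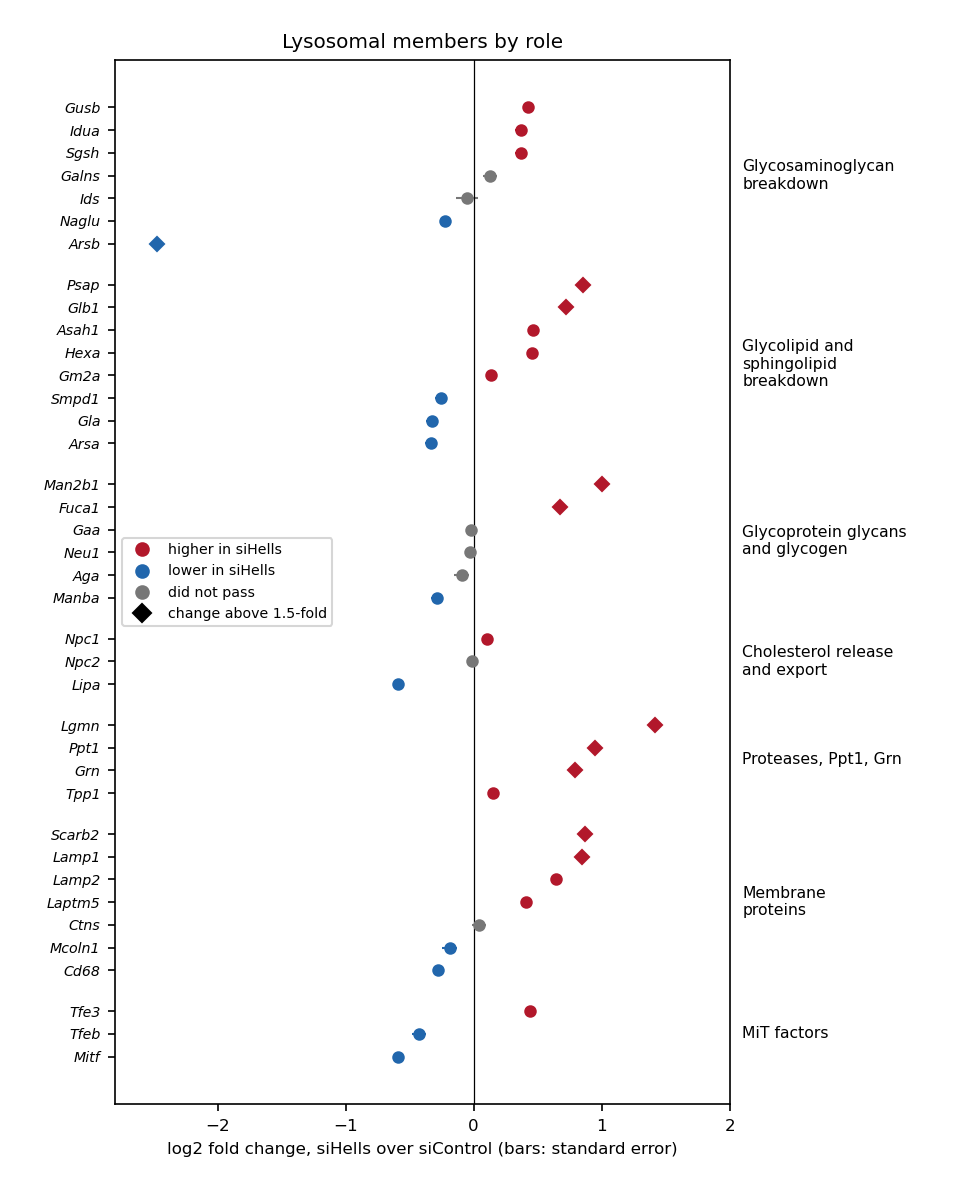
Log2 fold change (siHells over siControl, horizontal axis) of the 38 genes, grouped by role, with bars for the standard error from the edgeR fit (2 libraries per group). Red genes were higher and blue genes lower in siHells at an adjusted p under 0.05, grey genes did not pass, and diamonds mark a change shown to exceed 1.5-fold. Arsb lies alone at -2.48, and the MiT factors fall on both sides of 0.

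In 7 genes the promoter shows the E-box CACGTG close to the start site, and they are given because this core is the sequence that MiT factors recognise. RefSeq windows (GRCm38.p6, 250 bases before to 50 after a start site) were found for 34 of the 38 genes, and Asah1, Npc1, Galns and Aga had none. CACGTG reads alike on both strands. It occurred in the windows of 9 genes (26.5% of the 34), beside 11.4% of genes tested that had a window. The longer form TCACGTG, searched on both strands and always overlapping CACGTG, was in windows of the same number of genes (26.5%, beside 6.71% of genes tested). A longer palindrome, with T before and A after CACGTG, was in 2 of the 34 genes (5.88%, beside 2.09% of genes tested). The longest palindrome searched, with GT before and AC after CACGTG, was in 0 of the 34, beside 0.764% of genes tested. The variant with T for the inner C of CACGTG was in 7 (20.6%, beside 11.2% of genes tested). A match is a description of letters, not a shown binding site. The 100 bases before the start site follow in order of log2 fold change (siHells over siControl), which stands before each colon, with CACGTG in capitals.
Lgmn, chr12:102439093-102439192, minus strand, 1.42: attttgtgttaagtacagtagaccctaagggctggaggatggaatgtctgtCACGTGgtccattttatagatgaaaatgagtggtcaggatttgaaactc
Lamp1, chr8:13159061-13159160, plus strand, 0.85: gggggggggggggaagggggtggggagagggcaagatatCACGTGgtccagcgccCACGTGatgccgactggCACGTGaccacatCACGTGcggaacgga
Glb1, chr9:114400978-114401077, plus strand, 0.73: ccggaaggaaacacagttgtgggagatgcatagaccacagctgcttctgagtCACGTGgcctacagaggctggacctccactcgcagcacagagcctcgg
Sgsh, chr11:119355511-119355610, minus strand, 0.37: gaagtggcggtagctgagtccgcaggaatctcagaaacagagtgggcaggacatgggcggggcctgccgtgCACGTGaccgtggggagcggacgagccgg
Mcoln1, chr8:3500419-3500518, plus strand, -0.19: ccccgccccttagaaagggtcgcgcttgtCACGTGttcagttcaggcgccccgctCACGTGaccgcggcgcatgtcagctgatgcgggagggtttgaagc
Naglu, chr11:101069994-101070093, plus strand, -0.22: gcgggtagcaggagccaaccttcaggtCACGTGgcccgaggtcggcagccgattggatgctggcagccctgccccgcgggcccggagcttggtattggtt
Arsa, chr15:89477425-89477524, minus strand, -0.33: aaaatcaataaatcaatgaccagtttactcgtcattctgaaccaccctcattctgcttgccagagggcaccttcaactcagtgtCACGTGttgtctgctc

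Genes with the E-box moved both ways. Lamp1 carries 4 copies, beginning 61, 45, 28 and 15 bases before the start site, and was higher in siHells. Mcoln1 carries 2 copies, at 71 and 45 bases, and was lower. The other matches lay farther out, in Gla at 227 and 194 bases and in Gaa at 140 bases. Of the 9 genes with CACGTG, 4 were higher, 4 lower and 1 did not pass, with a median log2 fold change of -0.02. Of the 25 genes with a window and no CACGTG, 14 were higher, 7 lower and 4 did not pass, with a median of 0.15. Over all genes tested, 29.0% were higher and 29.5% lower. Lgmn has a further RefSeq window, upstream of the one shown, without the motif, and the one shown lies inside the gene as GENCODE M21 places it. By that placement the Naglu motif and the Mcoln1 copy at 45 bases also lie inside their genes. The Sgsh motif crosses the start of its gene there.

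The MiT factors themselves split. Mitf, which with Tfe3 is needed for osteoclast formation in mice, was at 75.4 and 78.2 CPM in siHells, against 118.7 and 111.9 CPM in siControl (log2 fold change -0.59, SE 0.043, adjusted p = 1.41e-08). Tfeb, known to drive lysosome formation in mouse osteoclasts, was at 34.8 and 33.1 CPM in siHells, against 46.3 and 45.1 CPM in siControl, 1.35-fold lower (adjusted p = 6.28e-06). Tfe3 went the other way, with 153.0 and 144.8 CPM in siHells, against 109.1 and 110.0 CPM in siControl, 1.36-fold higher (adjusted p = 1.11e-07). The groups did not overlap for any of the 3 genes, which also held for 78.5% of all genes. Their summed level came to 263 and 256 CPM in siHells and 274 and 267 CPM in siControl, so the sum differed less than its parts. None of the 3 changes was shown to exceed 1.5-fold. Mitf lies on chromosome 6 at 97807052 to 98021349, Tfeb on chromosome 17 at 47737030 to 47792419 and Tfe3 on chromosome X at 7762560 to 7775202 (GENCODE M21 on GRCm38, all plus strand). RNA levels do not report where these proteins are in the cell.

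A list of 28 genes that control MiT factors, with the remaining MiT gene Tfec counted among them, moved both ways. Of the 28, 6 (Tfec included) were higher, 11 lower and 11 did not pass (60.7% past the test, beside 58.5% of all genes). The median log2 fold change was -0.06, and 0 were shown to change by more than 1.5-fold, beside 15.1% of all genes. Tfec was at 64.7 ± 1.39 CPM in siHells and 59.5 ± 2.84 CPM in siControl (SD, n = 2 each), a log2 fold change of 0.12 (adjusted p = 0.0476), and is named here for its family after its value was seen. The smallest p-values belonged to Rragd (log2 fold change -0.59) and Rragc (-0.22), Rag GTPases that bring mTORC1 and MiT factors to the lysosome, Ppp3r1 (0.39), the regulatory subunit of the phosphatase calcineurin that activates Tfeb, the mTORC1 subunit Rptor (0.30) and Ywhag (-0.19), of the proteins that bind MiT factors in the cytoplasm. The widest change on the list was in the Rag GTPase gene Rragb, named after its value was seen, at 0.295 and 0.447 CPM in siHells, against 0.673 and 0.859 CPM in siControl (log2 fold change -1.03, SE 0.37, adjusted p = 0.0254), from 16 and 24 counts in siHells and 37 and 43 counts in siControl.

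Among enzymes of glycosaminoglycan breakdown, Arsb stood far below the rest. Arsb encodes arylsulfatase B, which removes sulfate from dermatan and chondroitin sulfate. It was at 37.96 and 40.13 CPM in siHells, against 217.0 and 217.3 CPM in siControl, 5.56-fold lower (log2 fold change -2.48, SE 0.042, adjusted p = 3.80e-16), and 0.760% of all genes tested had a log2 fold change at or below it. The gene lies on chromosome 13 at 93771630 to 93943016, plus strand. Its exons overlap the noncoding Gm26527 over 32.3% of their length on the opposite strand, and reads of the pair cannot be told apart without strand. They also overlap the noncoding Gm47210 over 7.67% of their length on the opposite strand. Counts of these overlapping genes are not given here, so their part in the Arsb values was not tested.

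The other glycosaminoglycan enzymes changed by small amounts in both directions. Gusb, the beta-glucuronidase, was 1.34-fold higher, with 726 and 708 CPM in siHells, against 534 and 534 CPM in siControl. Idua, the iduronidase, and Sgsh, the heparan sulfamidase, were both 1.29-fold higher (adjusted p = 6.43e-06 and 1.32e-06). Naglu, which acts after Sgsh on the same heparan sulfate chain, was 1.17-fold lower (adjusted p = 0.000251). Sgsh exons overlap Card14 on the opposite strand over 21.6% of their length, and Card14 had 5 and 8 counts in siHells and 131 and 152 in siControl. Galns, a sulfatase of keratan and chondroitin sulfate, did not pass (log2 fold change 0.13, adjusted p = 0.0590), and without siHells replicate 2 it did (0.17, adjusted p = 0.0220). The iduronate sulfatase Ids was at 83.6 and 101.1 CPM in siHells, against 95.8 and 95.8 CPM in siControl. Its siHells libraries lay on either side of siControl, and its log2 fold change was 0.08 without siHells replicate 1 and -0.19 (adjusted p = 0.000306) without siHells replicate 2. Summed over the 7 genes, the level was 1135 and 1137 CPM in siHells and 1106 and 1107 CPM in siControl.

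Genes of glycolipid and sphingolipid breakdown were led by Psap, the precursor of the saposins that present lipids to their enzymes. Psap, the most abundant of the 38, was at 15593.5 and 15509 CPM in siHells, against 8495 and 8682 CPM in siControl, 1.81-fold higher (log2 fold change 0.86, SE 0.021, adjusted p = 2.45e-14). It lies on chromosome 10 at 60277627 to 60302597, plus strand. Glb1, the beta-galactosidase, was 1.65-fold higher, with 229 and 225 CPM in siHells, against 138 and 137 CPM in siControl, and with library totals its change was no longer shown to exceed 1.5-fold (adjusted p = 0.0530). Hexa, the alpha subunit of beta-hexosaminidase, and Asah1, the acid ceramidase, each rose 1.38-fold (Hexa 1214 and 1187 CPM in siHells, against 877 and 868 CPM in siControl), and Gm2a, the activator that Hexa needs for its ganglioside, rose 1.10-fold (adjusted p = 0.000852).

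Arsa and Gla, enzymes whose lipids are presented by a saposin, were lower. Arsa, the sulfatase of sulfatide, was at 52.0 and 49.2 CPM in siHells, against 63.1 and 64.4 CPM in siControl, 1.26-fold lower (adjusted p = 2.79e-05). Gla, the alpha-galactosidase, was 1.25-fold lower (adjusted p = 1.38e-05), and the acid sphingomyelinase Smpd1 was 1.19-fold lower (adjusted p = 0.000368). All 8 genes of this role passed the test, 5 higher and 3 lower, beside 58.5% of all genes passing. None overlapped between the groups, which also held for 78.5% of all genes. Arsa exons overlap the antisense gene C230037L18Rik over 18.8% of their length, and that gene had at most 52 counts in any library. Hexa shares 12.8% of its exons with Tmem202 on the opposite strand (at most 99 counts). Glb1 shares 5.5% of its exons with Tmppe on the same strand, where strand cannot separate them. Tmppe had means of 47.4 CPM in siHells and 47.2 CPM in siControl.

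Of the enzymes that trim glycoproteins and glycogen, the alpha-mannosidase and the fucosidase rose and the beta-mannosidase fell. Man2b1, the lysosomal alpha-mannosidase, was at 818 and 814 CPM in siHells, against 406 and 410 CPM in siControl, 2.00-fold higher (SE of the log2 fold change 0.027, adjusted p = 9.04e-14). Fuca1, the fucosidase, was at 200.6 and 196.2 CPM in siHells, against 123.6 and 124.9 CPM in siControl (log2 fold change 0.68). Its change no longer exceeded 1.5-fold by the test without siControl replicate 1 (adjusted p = 0.147) or with upper-quartile (0.100) or library-total scaling (0.522). Manba, the beta-mannosidase that removes the last mannose left by Man2b1, went the opposite way, 1.22-fold lower (adjusted p = 1.65e-05). The sialidase Neu1, the glycogen-degrading Gaa and the aspartylglucosaminidase Aga had log2 fold changes of -0.03, -0.02 and -0.09 and did not pass. Neu1 and Glb1 work in 1 complex held together by Ctsa, and Neu1 was at 89.5 and 90.5 CPM in siHells, against 91.3 and 92.5 CPM in siControl. Ctsa, named here for that complex after its value was seen, was at 995 ± 4.55 CPM in siHells and 769 ± 29.4 CPM in siControl (SD, n = 2 each), a log2 fold change of 0.37.

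The route by which cholesterol leaves the lysosome did not move as a unit. Lipa, the acid lipase that frees cholesterol from its esters, was at 754 and 750 CPM in siHells, against 1131 and 1137 CPM in siControl, 1.51-fold lower (log2 fold change -0.59, SE 0.026, adjusted p = 2.23e-11). Npc2, which hands cholesterol to Npc1, was at 1358 and 1346 CPM in siHells, against 1357 and 1374 CPM in siControl, and the groups overlapped. Npc1, the exporter in the membrane, was 1.08-fold higher (adjusted p = 0.00850), a difference that did not pass without siControl replicate 2 (0.0591), with upper-quartile scaling (0.0549) or with library totals (0.359). Lipa lies on chromosome 19 at 34492318 to 34527474, minus strand.

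Proteases and the proteins grouped with them all rose. Lgmn, the asparaginyl endopeptidase legumain that also activates cathepsins, was at 2140 and 2047 CPM in siHells, against 778 and 787 CPM in siControl, 2.68-fold higher (log2 fold change 1.42, SE 0.028, adjusted p = 2.24e-15). This was the largest rise of the 38. Ppt1, which removes fatty acids from proteins, was at 183.5 and 183.0 CPM in siHells, against 93.6 and 96.3 CPM in siControl, 1.93-fold higher. Ppt1 exons overlap Cap1 on the opposite strand over 3.5% of their length. Cap1 had means of 500 CPM in siHells and 502 CPM in siControl. Grn, the progranulin precursor, was at 2986 and 2940 CPM in siHells, against 1679 and 1746 CPM in siControl, 1.73-fold higher. Progranulin and the saposin precursor bind each other, and their genes rose with fold changes of 1.73 for Grn and 1.81 for Psap. Tpp1, a tripeptidyl peptidase, rose 1.11-fold (adjusted p = 0.000616). Lgmn lies on chromosome 12 at 102394084 to 102439813, minus strand.

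Structural membrane proteins rose while the calcium channel and Cd68 were lower. Lamp1, which coats the lysosomal membrane, was at 3085 and 3020 CPM in siHells, against 1693 and 1698 CPM in siControl, 1.80-fold higher (adjusted p = 1.36e-13). Its partner Lamp2, which also takes part in autophagy, was at 694 and 757 CPM in siHells, against 460 and 468 CPM in siControl, 1.56-fold higher. Lamp2 was not shown to change by more than 1.5-fold (adjusted p = 0.121), and that p was 0.000113 without siHells replicate 1 (log2 fold change 0.71) and 0.924 without siHells replicate 2 (0.58). Scarb2, a lysosomal membrane protein that also serves as a transport receptor, was at 297 and 303 CPM in siHells, against 164.2 and 164.4 CPM in siControl, 1.83-fold higher (adjusted p = 3.55e-12). Laptm5, a membrane protein of blood cell lysosomes, rose 1.33-fold to 1491 and 1466 CPM in siHells, against 1108 and 1119 CPM in siControl.

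Mcoln1, the lysosomal calcium channel whose current activates calcineurin, was at 39.3 and 35.1 CPM in siHells, against 42.9 and 41.9 CPM in siControl (log2 fold change -0.19, adjusted p = 0.0153). That call was lost without siHells replicate 2 (adjusted p = 0.161) and without siControl replicate 1 (0.0696). Cd68, the glycoprotein used as a stain for macrophages, was at 816 and 776 CPM in siHells, against 974 and 961 CPM in siControl, 1.22-fold lower. It differed in direction from the 12 macrophage markers listed separately. The cystine exporter Ctns did not pass (log2 fold change 0.04) and its groups overlapped.

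**Figure D2:**
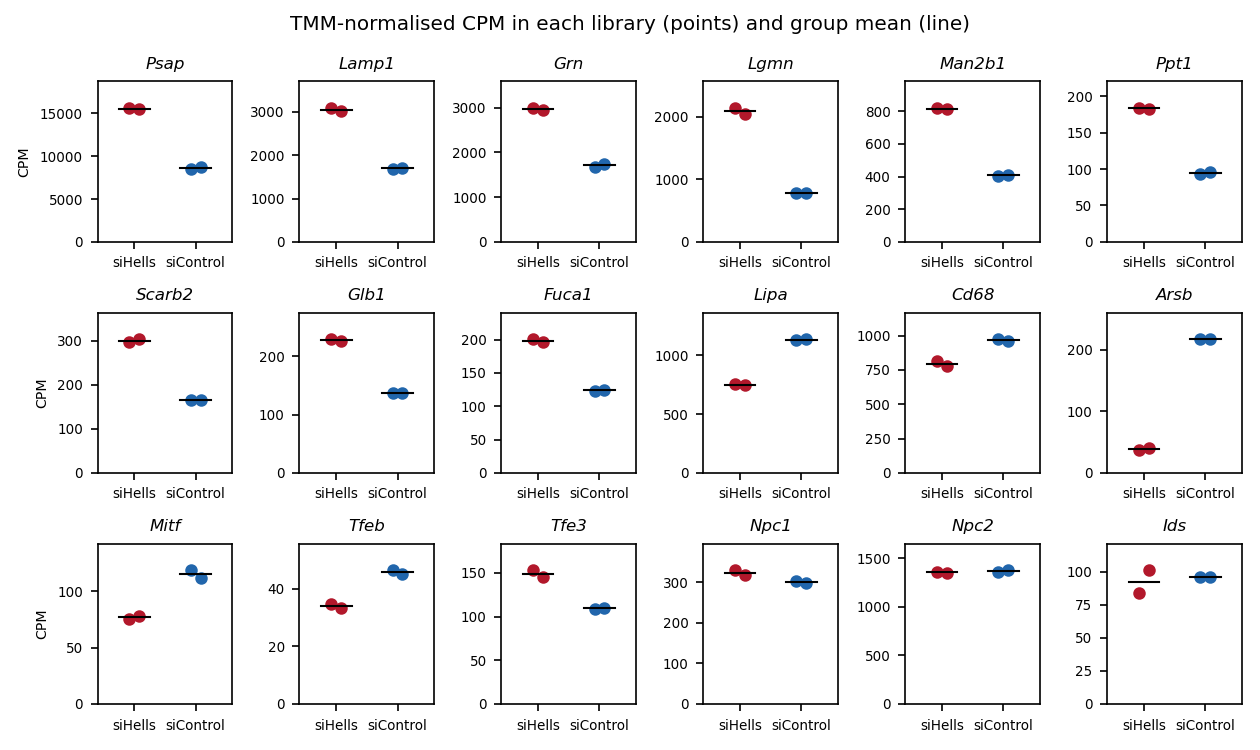
TMM-normalised CPM of 18 of the genes in each library (points, siHells left and siControl right) with the group mean as a line (2 libraries per group); every vertical axis starts at 0. The groups are far apart for Psap, Lamp1, Grn, Lgmn and Arsb, the factors Mitf and Tfeb lie lower and Tfe3 higher in siHells, and the siHells points of Ids, at 83.6 and 101.1 CPM, enclose those of siControl.

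Summed over all 38 genes, lysosomal RNA came to 35618 and 35238 CPM in siHells, against 23028 and 23302 CPM in siControl, a ratio of 1.53. Psap made up the largest part of each sum, and without it the other 37 genes came to 20025 and 19729 CPM in siHells, against 14533 and 14620 CPM in siControl, a ratio of 1.36. By role the ratio was 1.92 for proteases with Ppt1 and Grn, 1.71 for glycolipid breakdown, 1.49 for glycoproteins and glycogen, 1.43 for membrane proteins, 1.03 for glycosaminoglycans, 0.959 for MiT factors and 0.867 for the cholesterol route. The same ratio over all 15651 genes tested was 1.05.

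**Figure D3:**
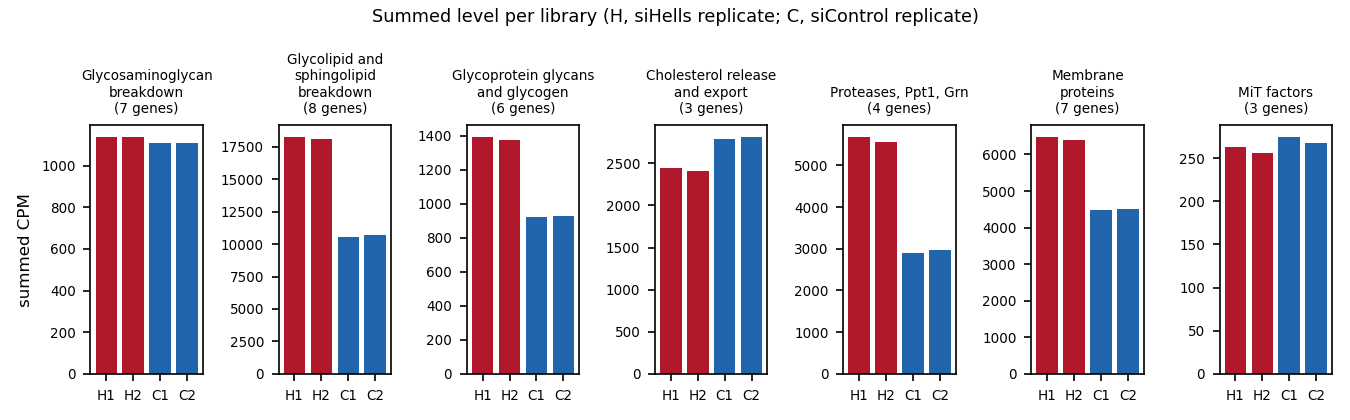
Summed TMM-normalised CPM of the genes of each role in the 4 libraries (red bars siHells replicates, blue bars siControl replicates); each panel has its own axis from 0. Glycolipid breakdown reaches 18235 and 18102 CPM in siHells, against 10548 and 10730 CPM in siControl, and the cholesterol route is lower in siHells.

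Genes at a higher level were more often higher in siHells. Per kilobase of exon, Psap was highest of the 38 in both groups, with a mean of 5667 CPM per kb in siHells and 3130 CPM per kb in siControl, and Mcoln1 was lowest in both, at 4.93 CPM per kb in siHells and 5.61 CPM per kb in siControl. Lgmn ranked 3 in siHells and 6 in siControl, Cd68 ranked 5 in siHells and 2 in siControl, and Arsb ranked 36 in siHells and 19 in siControl. Of the 19 genes with the higher level over all 4 libraries, 16 were higher in siHells, 2 lower and 1 did not pass, with a median log2 fold change of 0.64. Of the 19 with the lower level, 4 were higher, 9 lower and 6 did not pass, with a median of -0.09. Ranked by siControl alone, which does not draw on the siHells values, the split was 14 higher and 4 lower against 6 higher and 7 lower. Across the 38 genes Spearman's rho between the level over all 4 libraries and log2 fold change was 0.53, beside -0.06 across the 14582 tested genes with an exon length. With the level in siControl alone, rho was 0.41 across the 38 and -0.17 across the 14582. Either level shares libraries with the fold change. These points share the same 4 libraries and are not independent, so rho is a description.

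**Figure D4:**
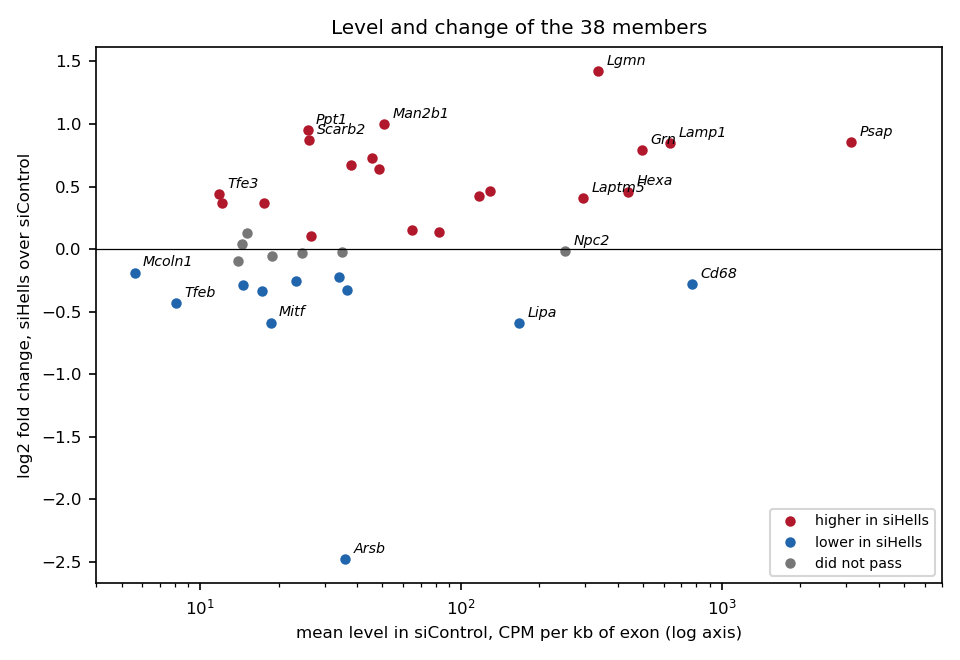
Mean level in siControl (horizontal, CPM per kb of exon, log axis) against log2 fold change (vertical, siHells over siControl) for the 38 genes. The genes at the right, Psap, Lamp1, Grn and Lgmn, lie above 0 with Cd68 and Lipa below it, and Arsb sits apart at -2.48.

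Lysosomal genes outside the 38 also moved both ways, and their summed level, with the abundant Acp5 included, was lower in siHells. Of 31 other hydrolases and activators tested, 19 were higher, 6 lower and 6 did not pass, with a median log2 fold change of 0.18. The share past the test was 80.6%, beside 58.5% of all genes. Among those with the smallest p-values were Acp5 (-2.32), the osteoclast acid phosphatase, Smpdl3a (1.16), a phosphodiesterase related to sphingomyelinase, Galc (1.15), the galactosylceramidase, and Pla2g15 (0.57), a lysosomal phospholipase. The 31 genes summed to 6458 and 6355 CPM in siHells, against 6979 and 6993 CPM in siControl, a ratio of 0.917. Without Acp5, the other 30 summed to 5969 and 5887 CPM in siHells, against 4596 and 4601 CPM in siControl, a ratio of 1.29. Acp5 is also on the osteoclast marker list.

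Among 32 other lysosomal membrane proteins and transporters, 15 were higher, 9 lower and 8 did not pass, with a median of 0.08. Slc36a1 (log2 fold change 1.36), an amino acid carrier, and Slc11a1 (0.95), a metal ion carrier of macrophages, rose. Slc37a2 (-1.26), Mfsd12 (-1.25) and Clcn7 (-0.84), the chloride carrier that osteoclasts need for acid secretion, fell. For the 16 genes that tag and deliver enzymes the counts were 5 higher, 6 lower and 5 not past, with a median of 0.04. Sort1, the sortilin receptor that can carry Psap, rose (1.23), while both mannose-phosphate receptors M6pr (-0.49) and Igf2r (-0.50), the adaptor Gga2 (-0.76) and Gnptab (-0.34), which starts the mannose-phosphate tag, fell. With the list on MiT control, the genes outside the 38 came to 107, of which 45 were higher and 32 lower (72.0% past the test, beside 58.5% of all genes). That balance rests on the scaling: 35 were higher and 45 lower with library totals, and 39 higher and 37 lower with upper-quartile scaling. The counts over all genes shifted too, from 4541 higher and 4612 lower with TMM to 3773 and 5508 with library totals. With upper-quartile scaling they were 4163 and 4979. The 107 summed to 15359 and 15394 CPM in siHells, against 16694 and 16731 CPM in siControl, a ratio of 0.920. Acp5 is part of that sum, with a mean of 479 CPM in siHells and 2388 CPM in siControl, so the ratio does not describe the other genes.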

How the data were processed

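The authors deposited raw read counts per gene symbol for 4 libraries, with no 0 in the table, so genes with 0 reads in any library were not analysed here. Per the submitters' processing notes, FastQC, Trimmomatic 0.38, HISAT2 2.1.0, StringTie 2.1.3b, edgeR and the build mm10 were used, without their roles. The annotation and the strand setting are not given here, and the labels name 2 kits, 1 of them stranded, so genes with overlapping exons are uncertain. Library totals ranged from 48873635 to 55642819, and the lowest count of any of the 38 genes was 1586 (Aga).

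Counts were filtered with filterByExpr (minimum count 10, minimum total 15), scaled by TMM and tested in edgeR 4.0.16 (R 4.3.3) with the robust quasi-likelihood fit in its current form and group as the only term. A change beyond 1.5-fold was tested with glmTreat. The Benjamini-Hochberg adjustment covered 15651 genes, at a threshold of 0.05. Levels are CPM, given per library or as mean ± SD. Exon lengths and positions came from GENCODE M21 and promoters from RefSeq (GRCm38.p6). The procedure was also run on simulated counts, with far fewer genes changed than in these data, so that run does not test the scaling. Libraries of 1 group were further apart than counting noise alone gives (chi-square per gene 6.69 in siHells and 3.59 in siControl).

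All 38 genes are named. From each pathway list up to 5 genes with the smallest p are named. 1 of these is not reported here. The genes and lists were chosen with earlier results of these data known. Alternatives were other scalings, filters, tests (DESeq2 1.42.0, limma 3.58.1 voom), a replicate block and each library left out. The legacy quasi-likelihood fit was added after seeing the data.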

Additional observations from a re-analysis of the deposited data

How the results depend on the processing

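Of the 38 genes, 28 kept their direction and their side of the threshold under all 13 alternatives. With library totals, the median log2 fold change of the 38 moved to 0.059 and the ratio of their summed levels to 1.45, and 2 genes rather than 1 were lower by more than 1.5-fold, Lipa (adjusted p = 0.00465) joining Arsb. In that setting 7 genes rather than 9 were higher by more than 1.5-fold, without Glb1 (adjusted p = 0.0530) and Fuca1 (0.522). With upper-quartile scaling the median was 0.100 and the ratio 1.495. These scalings moved the median of all genes to -0.078 and -0.037. Reversed values belonged to genes that did not pass: Ctns was at -0.033 with library totals, and with each library left out in turn Ids ranged from -0.19 to 0.080 (positive without siHells replicate 1), Gaa from -0.063 to 0.027 (positive without siHells replicate 2) and Npc2 from -0.031 to 0.0015 (positive without siControl replicate 2). Gaa, Neu1, Npc2 and Aga were lower, and Gm2a did not pass, with library totals. Leaving out each library gave 19 to 21 genes higher and 10 to 11 lower, 8 to 10 higher by more than 1.5-fold, medians from 0.11 to 0.15, and ratios of summed levels from 1.51 to 1.55. With the replicate number as a block, 20 genes were higher and 11 lower, as without it, and same-numbered libraries did not deviate together (correlation 0.04 over 11909 genes), so the number was not taken as a pairing. With at least 1586 counts per gene and library, the 2 libraries of a group were further apart than counting noise over the 38 genes. The chi-square per gene of the 38 was 16.4 in siHells and 5.52 in siControl. The part of counting error in each gene was not tested.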
